A study of Mus musculus with 12 samples.

Results

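Papillary fibroblasts of the newborn mouse dermis, sorted as CD26+ cells, were compared with fibroblasts of the same biological replicates sorted as Dlk1+ Sca1+, which the labels call pre-adipogenic. The arrays were chosen by their population label, which gave 6 of the 12 arrays of the series: 3 of papillary cells and 3 of Dlk1+ Sca1+ cells, from 3 female littermates aged 2 days. Papillary cells had been gated as CD26+, Dlk1- and Sca1-, and the other population as CD26-, Dlk1+ and Sca1+. Both came from dermis freed of the layer below it, and both were gated on Pdgfra and CD34 and against CD45, CD117, CD31 and EpCam. No strain, genotype or treatment is given in the labels, and the gates are what the labels set apart. The other 6 arrays hold Dlk1+ reticular cells (CD26-, Dlk1+, Sca1-) and Dlk1- Sca1+ cells (CD26-, Dlk1-, Sca1+) of the same littermates, 3 arrays each, and are used where the Dlk1+ Sca1+ cells are set against their neighbours. Each array holds cDNA of 4500 sorted cells, amplified over 21 cycles, and is a mean over those cells.

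The papillary dermis is the layer under the epidermis. Its fibroblasts receive Wnt signals from the epidermis, and in the newborn they can contribute to the mesenchyme of hair follicles and to the muscle that erects the hair. Deeper fibroblasts of the reticular dermis and hypodermis make most of the fibrous matrix, and those that carry Sca1 include precursors of the fat layer of the skin. CD26 is the surface peptidase encoded by Dpp4, Dlk1 is a membrane protein that restrains adipocyte formation, and Sca1 is encoded by Ly6a, which is not analysed here because the annotation used names no probe set for it.

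Levels are log2 values from the deposited table, in the order of animals 1, 2 and 3. These stand for the biological replicates NB1 to NB3, and arrays of one number were taken as the same animal. A difference is the papillary mean minus the Dlk1+ Sca1+ mean on the log2 scale, with limma's standard error (SE) after the ± sign and n = 3 arrays per population, so 1 unit is a 2-fold difference. A gene is called, and is said to be higher or lower in papillary cells, when limma's p-value adjusted by Benjamini-Hochberg over all 17097 genes is under 0.05. Both populations are bulk samples, in which fewer cells of a type and less RNA per cell cannot be told apart.

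The genes behind the gates and the marker genes of the comparison were read first. Dpp4 was at 10.97, 10.18 and 10.69 in papillary arrays, against 6.2, 6.31 and 6.26 in Dlk1+ Sca1+ arrays. The groups lie far apart, which is the direction the CD26 gate sets (difference 4.36 ± 0.17, adjusted p = 1.03e-09). Dlk1 was at 9.82, 10.10 and 9.99 in papillary arrays, against 12.87, 12.90 and 12.82 in Dlk1+ Sca1+ arrays, a difference of -2.89 ± 0.10 (adjusted p = 2.65e-10). Papillary cells, gated as Dlk1-, were thus lower in the Dlk1 transcript on every array. Of the genes that both gates required, Pdgfra differed by 0.54 ± 0.27 (adjusted p = 0.169, and 0.0339 once the animal was a block, with a range of 0.29 to 0.85 when an animal or array was left out) and Cd34 by -0.33 ± 0.10 (adjusted p = 0.0192, and 0.06 to 0.141 without animal 1, 2 or 3). Of the genes gated against, Ptprc, which encodes CD45, was between 3.82 and 3.92 on all 6 arrays. Kit, which encodes CD117, differed by 0.42 ± 0.15 (adjusted p = 0.0596, 0.0443 once the animal was a block and 0.0134 without animal 1) and Epcam by -0.55 ± 0.53 (adjusted p = 0.544). Pecam1, which encodes CD31, was at 7.09, 7.03 and 6.94 in papillary arrays, against 7.78, 8.74 and 7.94 in Dlk1+ Sca1+ arrays. Its difference was -1.13 ± 0.22 (adjusted p = 0.00145), and it was -0.84 without the Dlk1+ Sca1+ array of animal 2, which had the highest value.

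Marker genes of other cell types moved unevenly between arrays. Over all genes, 14.1% were called higher in papillary cells and 13.9% lower. The mean level of 20 endothelial markers was 6.04 to 6.14 in papillary arrays and 6.41 to 6.81 in Dlk1+ Sca1+ arrays. Of the 20, 7 were called lower in papillary cells (35.0%). By limma 0 were called higher (1 at an unadjusted p under 0.05), and the 7 became 4 without animal 2, without animal 3 and without the papillary array of animal 1 or 3. For 15 pericyte and smooth muscle markers the mean was 6.69 to 6.76 in papillary arrays and 6.98 to 7.44 in Dlk1+ Sca1+ arrays, with 3 called higher (20.0%) and 5 lower (33.3%). In both lists the highest mean was that of the Dlk1+ Sca1+ array of animal 2. For 18 skeletal muscle markers the mean was 5.46 to 5.51 in papillary arrays and 5.80 to 5.82 in Dlk1+ Sca1+ arrays. Of these, 5 were called lower (27.8%), or 3 without animal 1, without animal 3 and without the papillary or the Dlk1+ Sca1+ array of animal 1. By limma 0 of 18 keratinocyte markers were called (1 at an unadjusted p under 0.05, lower), although the mean varied from 6.16 to 7.07 over papillary arrays and from 6.73 to 7.59 over Dlk1+ Sca1+ arrays. Without animal 1, whose papillary array was the highest, 5 of the 18 were called lower. Of 20 immune and mast cell markers, 2 were called lower (Cd79a and Cd68), and of 13 melanocyte and Schwann cell markers 1, Mitf, which lost its call without animal 1 and without animal 3. The erythroid gene Hba-a1 was at 7.44, 7.61 and 7.57 in papillary arrays, against 10.82, 7.98 and 10.50 in Dlk1+ Sca1+ arrays, so animals 1 and 3 carry its difference (adjusted p = 0.0471, and 0.0646 once the animal was a block). Arrays of one population correlated at 0.992 to 0.995 over genes, and papillary with Dlk1+ Sca1+ arrays at 0.948 to 0.953.

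Of the 17097 genes, 4787 were called (28.0%), 2411 of them higher in papillary cells (14.1%) and 2376 lower (13.9%). A difference of at least 1 on the log2 scale was called for 1123 genes (6.57%), 522 higher (3.05%) and 601 lower (3.52%). The median difference over all genes was 0.00. The tails were longer on the lower side: the first percentile of the differences was -2.16 and the 99th was 1.79, and 81 genes were at least 8-fold lower in papillary cells whereas 40 were at least 8-fold higher. The 3 animals differed in one direction for 4771 of the 4787 called genes. The 3 arrays of one group lay wholly above those of the other in 6875 genes (40.2%), with papillary arrays above in 3455 (20.2%) and below in 3420 (20.0%), and in 67 called genes the groups overlapped.

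**Figure D1:**
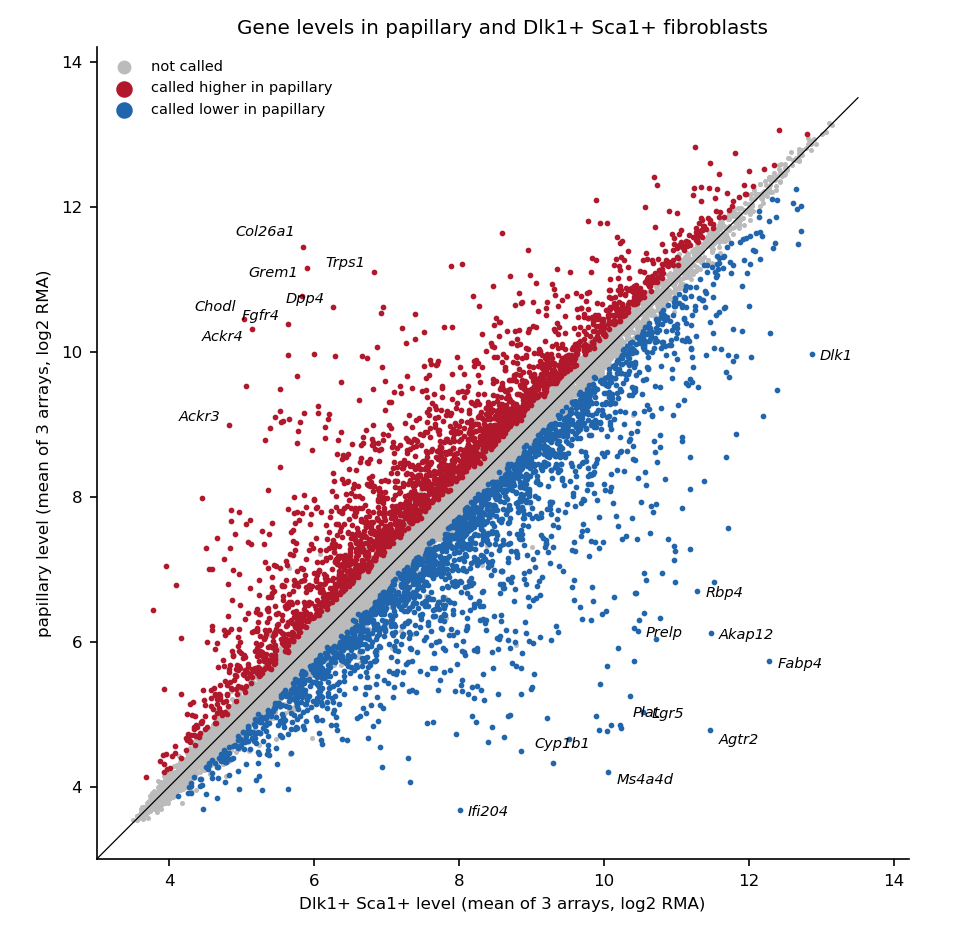
Mean level of each of 17097 genes in papillary arrays (vertical axis, log2) against Dlk1+ Sca1+ arrays (horizontal axis, log2), with 3 arrays per mean and the line of equal levels. Red points are the 2411 genes called higher in papillary cells and blue points the 2376 called lower, and the named genes lie farthest from the line, with Dlk1 at the bright end.

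The 25 genes with the largest excess in papillary cells, picked among called genes whose groups do not overlap, encode proteins of many kinds. Col26a1, which encodes a minor collagen, was at 11.50, 11.49 and 11.35 in papillary arrays, against 5.70, 5.78 and 6.07 in Dlk1+ Sca1+ arrays. The 3 papillary arrays lie close together and far above the others (difference 5.60 ± 0.15, 48.4-fold, adjusted p = 4.34e-11). Chodl, which encodes a membrane lectin, was at 10.49, 10.21 and 10.65 in papillary arrays, against 5.08, 5.05 and 4.96 in Dlk1+ Sca1+ arrays, 42.8-fold higher (difference 5.42 ± 0.24). Grem1, a secreted antagonist of bone morphogenetic proteins (BMPs), was at 11.25, 11 and 11.19 in papillary arrays, against 5.81, 6.06 and 5.83 in Dlk1+ Sca1+ arrays, 38.0-fold higher (difference 5.25 ± 0.13). In each of these genes the lowest papillary array was above the highest Dlk1+ Sca1+ array by more than 4 units.

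Ackr4 and Ackr3 encode atypical chemokine receptors, which bind and remove chemokines without the usual signalling. Ackr4, which takes up Ccl19 and Ccl21, was at 10.56, 10.28 and 10.11 in papillary arrays, against 4.91, 5.25 and 5.28 in Dlk1+ Sca1+ arrays (difference 5.17 ± 0.21). Ackr3, which takes up Cxcl12, was at 8.75, 8.78 and 9.44 in papillary arrays, against 4.91, 4.84 and 4.73 in Dlk1+ Sca1+ arrays (difference 4.16 ± 0.17). The papillary array of animal 3 was the highest for Ackr3, and the other papillary arrays were still far above all Dlk1+ Sca1+ arrays. The ligands moved the other way. Cxcl12 was at 7.37, 7.09 and 7.39 in papillary arrays, against 11.14, 11.05 and 11.37 in Dlk1+ Sca1+ arrays (difference -3.90 ± 0.10), and Ccl19 differed by -2.27 ± 0.10.

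Col4a5 and Col4a6 encode basement membrane collagen chains and lie side by side on the X chromosome. Col4a6 was at 9.85, 9.48 and 9.67 in papillary arrays, against 5.58, 5.91 and 5.80 in Dlk1+ Sca1+ arrays (difference 3.90 ± 0.11). Col4a5 was at 9.51, 8.92 and 9.12 in papillary arrays, against 5.79, 5.38 and 5.40 in Dlk1+ Sca1+ arrays (difference 3.66 ± 0.24). Both were high on all papillary arrays. Fgfr4, a fibroblast growth factor receptor, was at 10.53, 10.41 and 10.21 in papillary arrays, against 5.77, 5.63 and 5.53 in Dlk1+ Sca1+ arrays, 26.7-fold higher. Each of its 5 probe sets was called higher. Entpd1, the surface enzyme CD39 that hydrolyses extracellular ATP, was at 9.70, 9.41 and 9.33 in papillary arrays, against 5.44, 5.65 and 5.51 in Dlk1+ Sca1+ arrays, 15.4-fold higher.

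Transcription factor genes in this group were Trps1, a repressor of the GATA family named for a human syndrome with sparse hair, Mef2c and Maf. Trps1 was at 11.22, 10.98 and 11.11 in papillary arrays, against 6.84, 6.54 and 7.08 in Dlk1+ Sca1+ arrays (difference 4.28 ± 0.16), and all of its 4 probe sets were called higher. Maf was at 9.0, 9.08 and 9.12 in papillary arrays, against 5.59, 5.75 and 5.60 in Dlk1+ Sca1+ arrays (difference 3.42 ± 0.08), and Mef2c differed by 3.61 ± 0.19. In Maf the spread between arrays of a group was small beside the gap between the groups. The serine protease genes Prss23 (4.93 ± 0.21) and Prss35 (4.32 ± 0.27), the actin-nucleating formin gene Fmn2 (4.46 ± 0.30) and Sytl2, an effector of Rab27 in vesicle traffic (3.96 ± 0.11), were also among the leading genes. Several others have roles best known in neurons, such as Gria4, an AMPA receptor subunit (3.67), Nptx1, a pentraxin (3.56), and Ramp1, a subunit of the receptor for the peptide CGRP (3.66).

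The genes with the largest deficit in papillary cells encode receptors, secreted proteins and enzymes. Agtr2, the type 2 angiotensin receptor, was at 4.73, 4.71 and 4.91 in papillary arrays, against 11.48, 11.44 and 11.47 in Dlk1+ Sca1+ arrays. The groups lie far apart with hardly any spread in either (difference -6.68 ± 0.11, adjusted p = 9.6e-13). Fabp4, the fatty-acid-binding protein of adipocytes and capillary endothelium, was at 5.30, 5.17 and 6.71 in papillary arrays, against 12.27, 12.36 and 12.21 in Dlk1+ Sca1+ arrays, 93.9-fold lower (difference -6.55 ± 0.29). The papillary array of animal 3 was higher than the other papillary arrays, and without it the Fabp4 difference was -7.05, larger than that of Agtr2. The papillary means of both genes were under the median level of the arrays, where the scale can be compressed. Fabp4 on the papillary array of animal 3 was above that median. Without the Dlk1+ Sca1+ array of animal 2, which was highest in endothelial markers, the Fabp4 difference was -6.51. With the mean of its 3 probe sets, all called lower, it was smaller, at -4.76.

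Lgr5, a receptor for R-spondins and a Wnt target in epithelial stem cells, was at 4.73, 5.33 and 5.04 in papillary arrays, against 10.43, 10.43 and 10.76 in Dlk1+ Sca1+ arrays, 45.5-fold lower (difference -5.51 ± 0.14). The Wnt receptor gene Fzd4 was at 5.28, 5.39 and 5.07 in papillary arrays, against 10.42, 10.33 and 10.32 in Dlk1+ Sca1+ arrays (difference -5.11 ± 0.13). Both were uniformly high in Dlk1+ Sca1+ cells. Gfra1, the co-receptor for the neurotrophic factor GDNF, was at 4.76, 4.99 and 4.67 in papillary arrays, against 10.53, 10.34 and 9.83 in Dlk1+ Sca1+ arrays (difference -5.43 ± 0.22). Ms4a4d, which encodes a membrane protein with 4 spans of unsettled role, was at 4.15, 4.32 and 4.15 in papillary arrays, against 10.19, 9.92 and 10.06 in Dlk1+ Sca1+ arrays, 57.7-fold lower.

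Plat, the tissue plasminogen activator, was at 4.88, 4.93 and 4.73 in papillary arrays, against 10.10, 10.27 and 10.30 in Dlk1+ Sca1+ arrays (difference -5.38 ± 0.09). C1s1, a protease of the classical complement pathway, was at 4.63, 4.92 and 4.98 in papillary arrays, against 10.37, 9.91 and 10.02 in Dlk1+ Sca1+ arrays (difference -5.26 ± 0.14). The groups are far apart in both. Further genes with a fall of over 4 units were Scn7a, a sodium-sensing channel (-5.28), Cyp1b1, a cytochrome P450 induced through the aryl hydrocarbon receptor (-5.14), and Bmper, a BMP-binding secreted protein (-4.98). The receptor genes Osmr for oncostatin M (-4.91) and Esr1 for oestrogen (-4.44) were lower in all 3 animals. So were Aoc3, a surface amine oxidase abundant on adipocytes (-4.68), Rbp4, the carrier of retinol (-4.58), and Ptgs2, the inducible cyclooxygenase (-4.35). Akap12, a scaffold for protein kinase A (-5.35), Gfpt2, which starts the hexosamine pathway (-4.68), Prelp, a leucine-rich proteoglycan (-4.32), and Cygb, cytoglobin (-4.28), were lower too, as were Fgl2, a fibrinogen-like protein (-4.86), Tmeff2, a membrane protein with follistatin domains (-4.69), and Angptl1, an angiopoietin-like protein (-4.53).

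**Figure D2:**
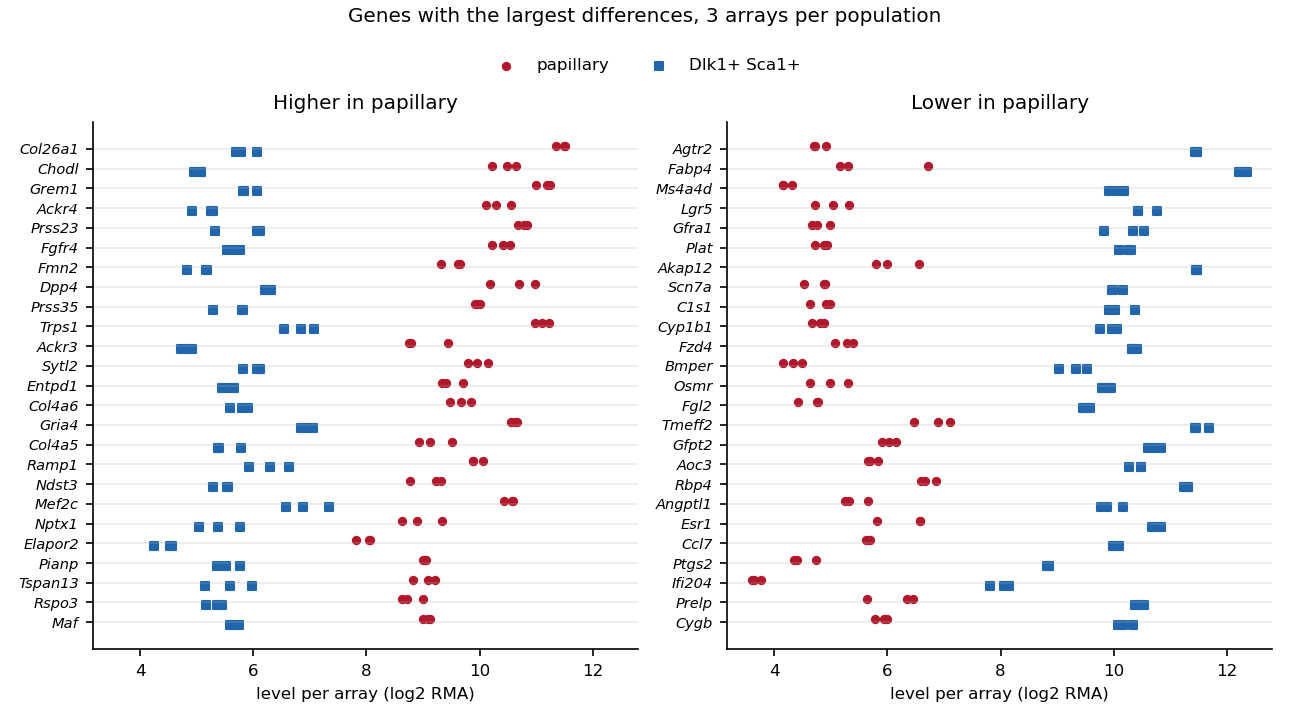
Level of each array (horizontal axis, log2) for the 25 genes with the largest called difference in each direction, with 3 papillary arrays as red circles and 3 Dlk1+ Sca1+ arrays as blue squares. Genes with overlapping groups or clone-like names were left out when the genes were picked, so the lack of overlap is set by that choice. The papillary array of animal 3 stands apart from the other papillary arrays in Fabp4.

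Genes known for the papillary dermis were mostly higher. Of 20 papillary genes measured, 15 were called higher (against 14.1% of all genes) and 1 lower, with a median difference of 2.40 against 0.00 over all genes. The list was chosen with earlier results of these data known, so its count is no independent check of the population. Besides Trps1 and Entpd1 these include Apcdd1, a membrane inhibitor of Wnt signalling, at 11.61, 11.76 and 11.54 in papillary arrays, against 8.57, 8.58 and 8.62 in Dlk1+ Sca1+ arrays (difference 3.05 ± 0.16). Dkk2, a secreted Wnt modulator, was at 9.01, 8.35 and 8.84 in papillary arrays, against 6.12, 5.73 and 5.45 in Dlk1+ Sca1+ arrays (difference 2.97 ± 0.20), and Tnfrsf19, a receptor of the tumour necrosis factor family, differed by 2.85 ± 0.21. None of these has overlapping groups. The exception in the list was Pdpn, the mucin-like podoplanin (-1.45 ± 0.10). Prdm1, which marks early papillary precursors, was at 6.04, 6.18 and 6.27 in papillary arrays, against 5.96, 6.06 and 5.96 in Dlk1+ Sca1+ arrays, with a difference of 0.17 ± 0.20 (adjusted p = 0.642).

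Secreted Wnt agonists were in part higher. Of 18 Wnt and R-spondin genes, 9 were called higher and 3 lower. The R-spondins, which raise Wnt signalling through Lgr receptors, led the list. Rspo3 was at 9.0, 8.63 and 8.72 in papillary arrays, against 5.35, 5.45 and 5.16 in Dlk1+ Sca1+ arrays (difference 3.46 ± 0.14) and Rspo1 at 7.24, 7.25 and 7.39 in papillary arrays, against 4.66, 4.50 and 4.36 in Dlk1+ Sca1+ arrays (difference 2.79 ± 0.17). Both are separated by more than 2 units. Wnt5a, a ligand of the branch without beta-catenin, differed by 1.04 ± 0.23 and was not called without animal 3, while Wnt2b (-1.16 ± 0.08), Wnt9a (-0.66 ± 0.15) and Wnt2 (-0.64 ± 0.12) were lower. Of the 2 probe sets of Wnt9a, 1 was called.

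Of 20 Wnt receptor genes 4 were called higher (20.0%) and 6 lower (30.0%, against 13.9% of all genes), and the largest differences were those of receptors called lower. Besides Lgr5 and Fzd4, Lgr4 was at 6.0, 5.99 and 6.38 in papillary arrays, against 8.85, 8.93 and 9.0 in Dlk1+ Sca1+ arrays (difference -2.80 ± 0.15). The co-receptors Lrp5 (-0.93 ± 0.09) and Lrp6 (-0.85 ± 0.09) were lower by less than 1 unit. The kinase-like receptors Ror1 (0.98 ± 0.17) and Ror2 (0.74 ± 0.12), which bind Wnt5a, were higher. R-spondins were thus high where their receptors Lgr5 and Lgr4 were low.

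Of 17 inhibitors of the pathway limma called 10 higher and 0 lower (0 lower at an unadjusted p under 0.05 too), with a median difference of 0.62. Without animal 3, or without its Dlk1+ Sca1+ array, 1 was called lower. Wif1, which binds Wnt proteins, was at 10.35, 10.36 and 10.32 in papillary arrays, against 7.51, 7.72 and 8.14 in Dlk1+ Sca1+ arrays (difference 2.55 ± 0.16). Nkd2 (2.36 ± 0.12) and Dkk3 (1.88 ± 0.10) followed. Of 13 genes that Wnt signalling commonly induces, 7 were called higher (53.8% against 14.1% of all genes) and 2 lower (15.4%, near the 13.9% of all genes). Axin2, an intracellular brake that reports the pathway in many tissues, was at 9.68, 9.47 and 9.29 in papillary arrays, against 6.75, 6.90 and 6.77 in Dlk1+ Sca1+ arrays (difference 2.67 ± 0.13). Lef1, a DNA-binding partner of beta-catenin, was at 7.42, 7.38 and 7.06 in papillary arrays, against 4.55, 4.92 and 5.06 in Dlk1+ Sca1+ arrays (difference 2.44 ± 0.25). The targets called lower were Lgr5 and Myc (-0.26 ± 0.08, adjusted p = 0.0227), and Myc lost its call without animal 1, 2 or 3. The TCF and LEF1 core motif CTTTGA stood on either strand of the 250 bases before the start in 3 of the 6 higher targets with a promoter in the table (Dkk1, Lef1 and Tnfrsf19), and in 15.8% of all genes with one.

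**Figure D3:**
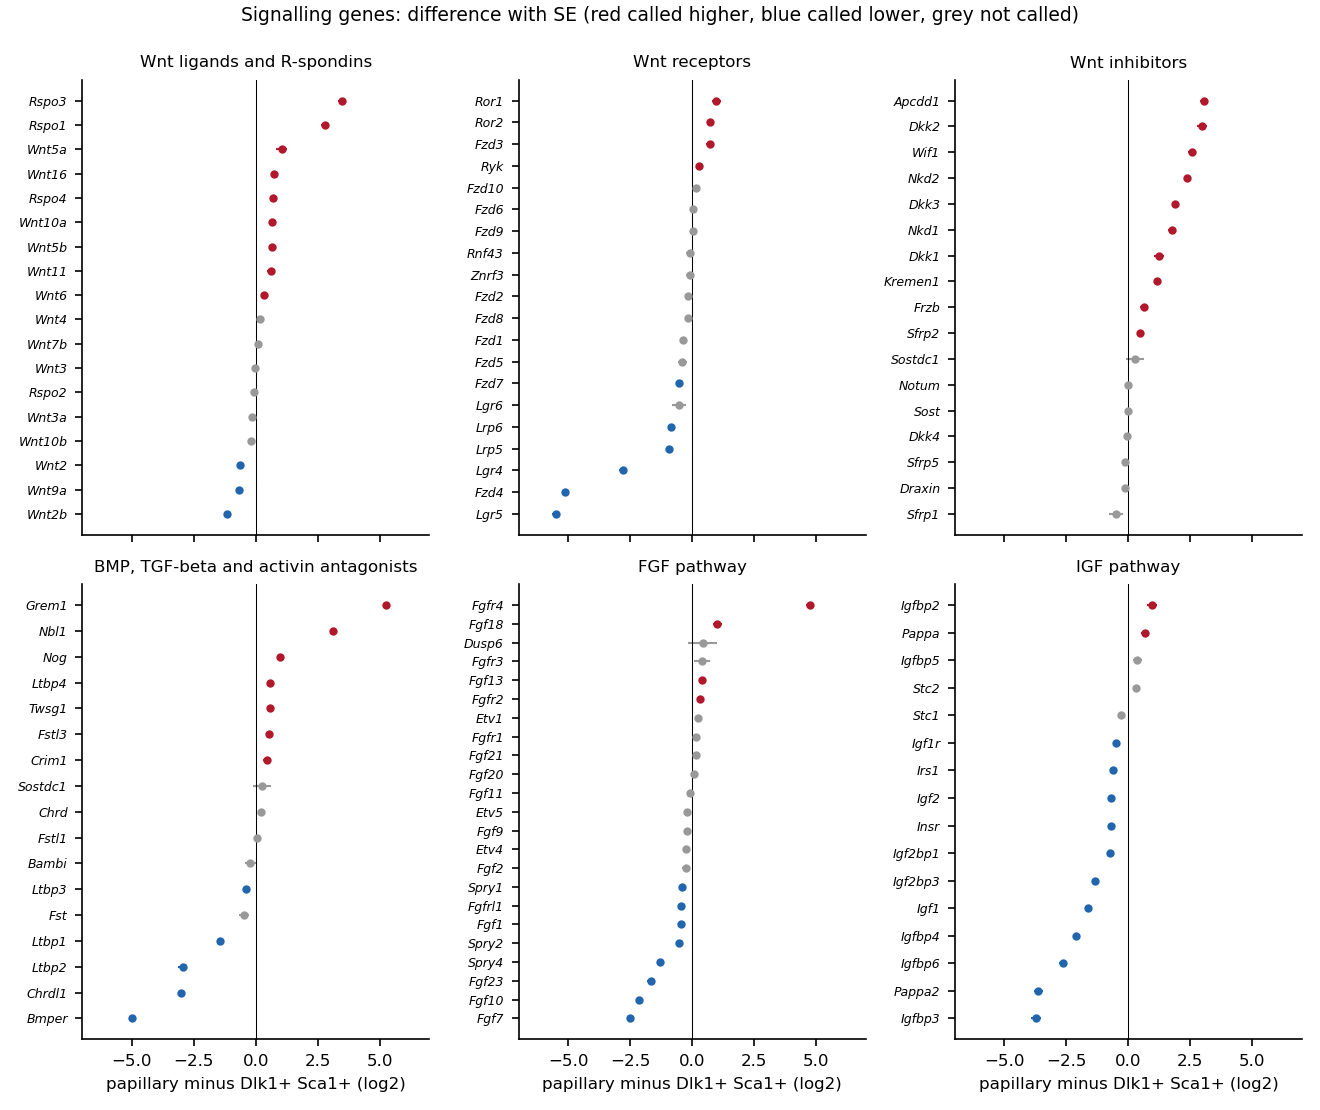
Difference between papillary and Dlk1+ Sca1+ cells (horizontal axis, log2, with SE bars) for the members of 6 signalling lists, 3 arrays per population. Red points were called higher, blue points lower and grey points were not called. All called Wnt inhibitors lie on the right, and the receptors Lgr5, Fzd4 and Lgr4 and most genes of the IGF pathway on the left.

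Antagonists and ligands of the BMP and transforming growth factor beta (TGF-beta) families changed in both directions. Of 17 genes in the antagonist list 7 were called higher (41.2% against 14.1% of all genes) and 5 lower (29.4% against 13.9%). The list also holds latent TGF-beta binding proteins, which are not antagonists as such. Of these, Ltbp4 was called higher and Ltbp1, Ltbp2 and Ltbp3 lower. Of 14 ligand genes 3 were called higher (21.4%) and 4 lower (28.6%). The 4 became 2 without animal 1 or 2, without the papillary array of animal 3 and without the Dlk1+ Sca1+ array of animal 1. Next to Grem1, Nbl1, another secreted BMP antagonist, was at 10.28, 10.32 and 10.36 in papillary arrays, against 7.32, 7.04 and 7.29 in Dlk1+ Sca1+ arrays (difference 3.10 ± 0.13). Nog, which encodes noggin, differed by 0.98 ± 0.13. On the other side stood Bmper and Chrdl1, a chordin-like antagonist at 5.71, 5.95 and 5.88 in papillary arrays, against 8.99, 8.70 and 8.92 in Dlk1+ Sca1+ arrays (difference -3.02 ± 0.13). The latent TGF-beta binding proteins Ltbp2 (-2.95 ± 0.18) and Ltbp1 (-1.44 ± 0.14) were lower as well, although only 1 of the 3 probe sets of Ltbp1 was called. Grem1, Nbl1 and Nog were therefore higher in papillary cells, and Bmper and Chrdl1 in Dlk1+ Sca1+ cells.

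Among the ligands Bmp4 was at 8.71, 8.93 and 8.93 in papillary arrays, against 7.61, 7.64 and 7.14 in Dlk1+ Sca1+ arrays (difference 1.39 ± 0.19). Inhba, a subunit of activin, was at 7.88, 7.85 and 7.82 in papillary arrays, against 5.93, 6.08 and 6.10 in Dlk1+ Sca1+ arrays (difference 1.81 ± 0.25), and Gdf10, a BMP-like ligand, was lower (-2.63 ± 0.18). The call of Inhba rests on 1 of its 2 probe sets. Of 20 receptors and target genes 4 were called higher (20.0%) and 8 lower (40.0%). The BMP-induced inhibitors of differentiation did not move together: Id2 (1.02 ± 0.10) and Id1 (0.55 ± 0.13) were higher and Id3 (-0.97 ± 0.11) was lower. Skil, a co-repressor induced by TGF-beta, was lower (-2.85 ± 0.16), and so was Smad7, an inhibitory Smad (-0.97 ± 0.19). The call of Id1 was lost without animal 3.

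In the Hedgehog pathway Gli1 (-1.09 ± 0.16) and Hhip (-1.18 ± 0.09), which the pathway induces, were lower, and so was the transcription factor gene Gli2 (-0.92 ± 0.08). The co-receptor genes Gas1 (0.75 ± 0.09) and Cdon (0.54 ± 0.10) and the factor gene Gli3 (0.68 ± 0.13) were higher. Of 14 genes 6 were called higher (42.9% against 14.1% of all genes) and 4 lower (28.6% against 13.9%). The 6 became 3 without animal 2 or 3, without the papillary array of animal 1 and without the Dlk1+ Sca1+ array of animal 2 or 3. Of 17 Notch genes 4 were called higher (23.5%) and 7 lower (41.2%). Heyl, a target of the pathway in mural cells, was at 5.53, 5.85 and 5.27 in papillary arrays, against 9.18, 9.13 and 8.8 in Dlk1+ Sca1+ arrays (difference -3.49 ± 0.15). The ligand gene Jag1 (-2.17 ± 0.15) and the target gene Hes1 (-1.65 ± 0.09) were lower, whereas Lfng, which modifies Notch receptors, was higher (1.10 ± 0.13). The target genes Hey1 (0.64 ± 0.11) and Hey2 (0.35 ± 0.07, at low levels on all 6 arrays) were higher as well, so the targets moved in both directions.

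Of 23 genes of the fibroblast growth factor (FGF) pathway 4 were called higher (17.4%, near the 14.1% of all genes). A further 8 were called lower (34.8% against 13.9%). Fgf7, which acts on the epithelial form of Fgfr2, was at 6.28, 6.09 and 5.84 in papillary arrays, against 8.64, 8.67 and 8.37 in Dlk1+ Sca1+ arrays (difference -2.49 ± 0.11). Fgf10, which acts on the same receptor, was at 6.19, 6.34 and 6.53 in papillary arrays, against 8.62, 8.29 and 8.53 in Dlk1+ Sca1+ arrays (difference -2.13 ± 0.11). The groups are separated in both. Fgf18 (1.02 ± 0.18) and Fgfr4 were higher, and the feedback inhibitor Spry4 was lower (-1.31 ± 0.12). The 4 became 2 without animal 2, without animal 3, without the papillary array of animal 1 or 2 and without the Dlk1+ Sca1+ array of animal 3.

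The insulin-like growth factor (IGF) list had the lowest median of the lists outside the sorting genes, at -0.71. Of its 16 genes 11 were called lower (68.8% against 13.9% of all genes) and 2 higher (12.5%, near the 14.1% of all genes). Igf1 was at 9.54, 9.75 and 9.44 in papillary arrays, against 11.24, 11.20 and 11.20 in Dlk1+ Sca1+ arrays (difference -1.64 ± 0.10). Igfbp3, the main carrier of IGFs in blood, was at 7.22, 7.74 and 6.77 in papillary arrays, against 11.13, 11 and 10.78 in Dlk1+ Sca1+ arrays (difference -3.73 ± 0.19). The papillary arrays of Igfbp3 spread over almost 1 unit, which is small beside the gap. Pappa2, a protease that cleaves IGF-binding proteins (-3.64 ± 0.18), and the binding proteins Igfbp6 (-2.64 ± 0.15) and Igfbp4 (-2.10 ± 0.08) were lower too. Igfbp2 (0.96 ± 0.21) and the protease gene Pappa (0.66 ± 0.15) were higher, the call of Pappa being lost without animal 1 and without animal 2.

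Of 30 genes for PDGF, VEGF, HGF, EGF and neurotrophic ligands and receptors 3 were called higher and 13 lower. Pdgfd, a platelet-derived growth factor, was at 9.11, 8.78 and 9.18 in papillary arrays, against 5.74, 5.46 and 6.21 in Dlk1+ Sca1+ arrays (difference 3.22 ± 0.21). Bdnf, a neurotrophin (1.73 ± 0.20), and Nrp2, a co-receptor for semaphorins and VEGF (1.11 ± 0.12), were the others called higher. Vegfd, a lymphatic growth factor (-3.18 ± 0.20), the hepatocyte growth factor receptor gene Met (-2.72 ± 0.22) with its ligand Hgf (-1.64 ± 0.17), and the receptor gene Egfr (-2.61 ± 0.18) were lower.

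Of 30 adipogenic transcription factor genes 19 were called lower (63.3% against 13.9% of all genes) and 1 higher, with a median of -0.52. Pparg, the receptor that commands adipocyte differentiation, was at 8.34, 8.10 and 8.46 in papillary arrays, against 9.77, 9.74 and 9.94 in Dlk1+ Sca1+ arrays (difference -1.52 ± 0.11). Cebpa, its partner, was at 8.71, 8.92 and 8.65 in papillary arrays, against 10.24, 10.53 and 10.25 in Dlk1+ Sca1+ arrays (difference -1.58 ± 0.12). Neither gene has overlapping groups, and both differences are under 2 units. Zfp423, which commits cells to the white adipocyte lineage, was at 5.06, 5.39 and 5.52 in papillary arrays, against 8.06, 7.95 and 7.83 in Dlk1+ Sca1+ arrays (difference -2.62 ± 0.13). Cebpd, an early factor, was at 7.32, 7.14 and 7.43 in papillary arrays, against 10.06, 9.88 and 9.86 in Dlk1+ Sca1+ arrays (difference -2.64 ± 0.12). Zfp521, which is known to oppose Zfp423 and Ebf1 in adipogenesis, was lower as well (-3.38 ± 0.13), and so was Ebf2 (-2.27 ± 0.16), so the list holds falls of factors with opposite roles. The 1 gene called higher was Id2 (1.02 ± 0.10).

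The genes of lipid uptake and storage were lower in part. Of 31 measured, 13 were called lower and 2 higher, with a median of -0.33, and 8 were called lower without animal 3. Cd36, a receptor for fatty acids that capillaries carry as well, was at 5.27, 5.35 and 5.20 in papillary arrays, against 8.66, 8.95 and 8.00 in Dlk1+ Sca1+ arrays (difference -3.26 ± 0.18). Lpl, the secreted lipase that frees fatty acids from lipoproteins, was at 8.94, 9.03 and 9.35 in papillary arrays, against 12.20, 12.12 and 12.24 in Dlk1+ Sca1+ arrays (difference -3.08 ± 0.11). Car3, a carbonic anhydrase abundant in fat and muscle, was at 5.25, 5.13 and 5.22 in papillary arrays, against 8.8, 7.81 and 8.43 in Dlk1+ Sca1+ arrays (difference -3.15 ± 0.25), although 2 of its 4 probe sets were not called. Mgll, which splits monoglycerides (-1.71 ± 0.11), and Plin2, which coats lipid droplets (-1.38 ± 0.13), were lower. Elovl6, an enzyme of fatty acid elongation (0.96 ± 0.18), was one of the 2 called higher. The other, Slc2a4, lost its call in 8 of the 9 fits that leave out an animal or an array.

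Since Fabp4 and Cd36 are shared with capillaries, they stand beside the endothelial markers. Tek, the angiopoietin receptor, was at 5.26, 5.50 and 5.07 in papillary arrays, against 8.11, 8.05 and 8.22 in Dlk1+ Sca1+ arrays (difference -2.85 ± 0.11) and had the largest difference in that list. Cdh5, the cadherin that defines endothelium, was at 5.55, 5.84 and 5.98 in papillary arrays, against 6.09, 7.76 and 6.02 in Dlk1+ Sca1+ arrays (difference -0.83 ± 0.43, adjusted p = 0.198). Cdh5 was high on the Dlk1+ Sca1+ array of animal 2, without which its difference was -0.27. Cd36 was also highest on that array, while Fabp4 and Tek differed by less than 0.2 between the Dlk1+ Sca1+ arrays. The part of endothelial RNA in any of these differences was not tested.

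Of 19 genes of sterol synthesis and lipoprotein uptake limma called 9 higher and 0 lower (0 lower at an unadjusted p under 0.05), with a median of 0.38, and with the animal as a block 14 were called higher. Lss, which closes the sterol ring, was at 7.64, 7.05 and 7.4 in papillary arrays, against 5.50, 5.87 and 5.86 in Dlk1+ Sca1+ arrays (difference 1.62 ± 0.16). Dhcr7, of the last step (0.95 ± 0.10), Fdps (0.94 ± 0.12), and the master regulator gene Srebf2 (0.61 ± 0.12) were higher. Hmgcs1, an early step, had a difference of 0.30 ± 0.12 (adjusted p = 0.0731, and 0.0466 once the animal was a block). It was 0.15 without the papillary array of animal 3, and it was called without that of animal 1 (0.40, adjusted p = 0.0302).

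Genes of cell division were higher in papillary cells without exception in the mitosis list. All 37 mitosis genes measured were called higher (against 14.1% of all genes), with a median of 1.32. Ccna2, the cyclin of S phase and mitosis, was at 10.19, 10.57 and 10.46 in papillary arrays, against 8.41, 8.63 and 8.67 in Dlk1+ Sca1+ arrays (difference 1.84 ± 0.12). Mki67, which encodes the proliferation antigen Ki-67, was at 9.60, 9.95 and 10.05 in papillary arrays, against 8.06, 8.21 and 8.34 in Dlk1+ Sca1+ arrays (difference 1.66 ± 0.14). The arrays of animal 1 were lowest in both populations for Ccna2 and Mki67. Cenpf, a kinetochore protein (1.90 ± 0.16), Kif11, a spindle motor (1.83 ± 0.14), and Aurkb, a mitotic kinase (1.82 ± 0.15), had differences of the same size. Of 30 DNA replication genes 17 were called higher and 1 lower (median 0.54), such as Lig1, a DNA ligase (1.13 ± 0.11), and Tyms, which makes thymidylate (1.11 ± 0.09). The gene called lower was Mcm4, a subunit of the replicative helicase (-0.37 ± 0.09), and its call was lost without animal 1 and without animal 2.

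Promoter windows of 4 mitosis genes are shown because all measured genes of the list were called higher, and as examples that hold both of the short motifs marked. They are RefSeq sequence of the build GRCm38.p6, the 140 bases that end just before the annotated start, 5′ to 3′ along the gene. Capitals mark the CCAAT box (CCAAT or its complement ATTGG), which the factor NF-Y binds, and the cell cycle homology region (TTTGAA or TTCAAA), through which cell cycle genes are held back in resting cells. The genes were chosen after their matches were seen, and so were the motifs, from a wider set. Their positions are chr10:69352913-69353052 on the minus strand for Cdk1, chr11:99024190-99024329 on the minus strand for Top2a, chr4:118437344-118437483 on the minus strand for Cdc20 and chr19:37376242-37376381 on the plus strand for Kif11.
Cdk1: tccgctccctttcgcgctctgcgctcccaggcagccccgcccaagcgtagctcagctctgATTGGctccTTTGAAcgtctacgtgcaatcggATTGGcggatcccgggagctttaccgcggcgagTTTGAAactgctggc
Top2a: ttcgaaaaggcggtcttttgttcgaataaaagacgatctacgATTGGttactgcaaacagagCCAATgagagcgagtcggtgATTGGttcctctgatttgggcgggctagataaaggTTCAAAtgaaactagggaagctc
Cdc20: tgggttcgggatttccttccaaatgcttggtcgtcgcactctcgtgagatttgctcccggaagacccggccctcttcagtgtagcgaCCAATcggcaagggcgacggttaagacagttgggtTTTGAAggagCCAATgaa
Kif11: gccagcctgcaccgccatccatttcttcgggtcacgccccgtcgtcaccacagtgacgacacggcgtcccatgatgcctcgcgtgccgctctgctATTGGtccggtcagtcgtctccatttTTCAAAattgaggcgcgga
Cdk1, the kinase that starts mitosis, was higher by 1.54 ± 0.11, Top2a, which untangles chromosomes, by 1.45 ± 0.10, and Cdc20, an activator of the anaphase ubiquitin ligase, by 0.93 ± 0.10. Of the 3 probe sets of Top2a, 1 was called. Within 250 bases before the start, on either strand, a CCAAT box stood in 23 of the 30 mitosis genes with a promoter in the table (76.7%), in 10 of 14 called DNA replication genes (71.4%) and in 37.5% of all 27025 genes. The TTTGAA motif stood in 10 of the 30 mitosis genes (33.3%), in 1 of 14 DNA replication genes (7.1%) and in 18.3% of all genes. A match describes the letters in the window and is no evidence of binding.

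The list of cell cycle inhibitors also holds Gas6, a gene of growth arrest that does not encode such an inhibitor. The list did not follow a single direction, with 8 of 18 called higher and 4 lower. Cdkn1c, an imprinted inhibitor of cyclin-dependent kinases, was at 10.30, 10.33 and 10.29 in papillary arrays, against 11.70, 11.78 and 11.87 in Dlk1+ Sca1+ arrays (difference -1.48 ± 0.07). Its arrays hardly varied within a group. Cdkn1a, the inhibitor p21, was lower (-0.69 ± 0.10), and so was Gas6, a secreted ligand first found in growth-arrested cells (-4.22 ± 0.13). Cdkn2c (0.97 ± 0.13) and Cdkn1b (0.44 ± 0.09), which also encode inhibitors of cyclin-dependent kinases, were higher. Imprinted genes, a class that includes many regulators of fetal growth, had 9 of 19 members called lower and 1 higher. Besides Dlk1 and Cdkn1c, Igf2 was lower (-0.70 ± 0.07), and Nap1l5 was the 1 called higher (1.48 ± 0.16).

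Of 31 chemokine and cytokine genes, the atypical receptors among them, 17 were called lower (54.8% against 13.9% of all genes), with a median of -0.62, and the 2 called higher were Ackr4 and Ackr3. Ccl7, which attracts monocytes, was at 5.63, 5.67 and 5.69 in papillary arrays, against 10.03, 9.98 and 10.10 in Dlk1+ Sca1+ arrays (difference -4.37 ± 0.10). Il6, an inflammatory cytokine, was at 6.76, 6.36 and 7.43 in papillary arrays, against 9.51, 9.49 and 9.76 in Dlk1+ Sca1+ arrays (difference -2.74 ± 0.27). In Il6 the papillary array of animal 3 came closest to the other group without overlap. Cxcl10, an interferon-induced chemokine, was lower (-2.78 ± 0.17). Of 20 immune and mast cell markers 2 were called lower, as given above, and Ptprc was near the lower end of the table on every array.

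The promoters of 3 chemokine and cytokine genes and of 3 interferon-induced genes are shown for the motif they carry, as RefSeq sequence of GRCm38.p6 in the same 140-base window. Capitals mark GGGA and TTTCC with any base between them, a form of the motif of NF-kappaB, in Cxcl1 (chr5:90891105-90891244 on the plus strand), Cxcl2 (chr5:90903759-90903898 on the plus strand) and Il6 (chr5:30012974-30013113 on the plus strand).
Cxcl1: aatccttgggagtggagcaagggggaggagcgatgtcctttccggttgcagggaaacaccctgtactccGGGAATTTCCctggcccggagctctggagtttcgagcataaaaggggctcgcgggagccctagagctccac
Cxcl2: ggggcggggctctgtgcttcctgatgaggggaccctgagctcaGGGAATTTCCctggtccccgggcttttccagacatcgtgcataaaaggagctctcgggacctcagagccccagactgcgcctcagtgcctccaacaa
Il6: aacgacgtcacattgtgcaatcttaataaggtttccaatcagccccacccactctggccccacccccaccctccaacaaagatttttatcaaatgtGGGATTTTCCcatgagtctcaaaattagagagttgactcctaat
Cxcl1 and Cxcl2, neutrophil chemokines that lie near each other and are close relatives, differed by -1.62 ± 0.15 and -1.26 ± 0.19. The motif stood in 4 of the 12 called chemokine and cytokine genes with a promoter in the table (33.3%, with Csf1 as the other one) and in 0.4% of all genes. In the next set the capitals mark GAAA and GAAA with any 2 bases between them, or the complement, a form of the interferon-stimulated response element, in Ifi203 (chr1:173942493-173942632 on the minus strand), Ifi205 (chr1:174031756-174031895 on the minus strand) and Gbp2 (chr3:142620523-142620662 on the plus strand).
Ifi203: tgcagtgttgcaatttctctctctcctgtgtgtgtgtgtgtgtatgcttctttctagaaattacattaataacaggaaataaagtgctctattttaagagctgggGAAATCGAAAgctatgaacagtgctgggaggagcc
Ifi205: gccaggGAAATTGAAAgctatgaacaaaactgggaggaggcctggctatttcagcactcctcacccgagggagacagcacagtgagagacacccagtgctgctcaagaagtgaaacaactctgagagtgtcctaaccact
Gbp2: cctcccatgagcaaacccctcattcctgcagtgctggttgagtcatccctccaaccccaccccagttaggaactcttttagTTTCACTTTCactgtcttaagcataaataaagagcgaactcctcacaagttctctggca
This motif stood in 6 of 14 genes of the antigen presentation and interferon list that were called lower and have a promoter (42.9%) and in 3.5% of all genes.

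In that list 15 of 26 genes were called lower and 2 higher, with a median of -0.54. Ifi204, an interferon-induced DNA-binding protein, was at 3.77, 3.65 and 3.61 in papillary arrays, against 8.06, 7.81 and 8.15 in Dlk1+ Sca1+ arrays (difference -4.33 ± 0.26). Its relative Ifi203 was at 5.30, 5.34 and 5.46 in papillary arrays, against 8.21, 8.13 and 8.21 in Dlk1+ Sca1+ arrays (difference -2.82 ± 0.12), and Ifi205 differed by -2.90 ± 0.17. These 3 are close relatives whose probes may share transcripts, so they are not independent. Each is nevertheless counted as a member of the list, and Ifi203 and Ifi205 are both among the genes counted with the motif. Irf9, a subunit of the factor that carries interferon signals to the nucleus (-1.33 ± 0.12), and Gbp2, a guanylate-binding protein (-1.20 ± 0.13), were lower, and Ifit2, an interferon-induced antiviral protein, was higher (1.09 ± 0.19). The other gene called higher, Nlrc5, lost its call without animal 2 and without animal 3. Of 22 complement genes 10 were called lower (45.5% against 13.9% of all genes) and 2 higher (9.1%, under the 14.1% of all genes). C1ra, which activates C1s (-3.71 ± 0.19), C2 (-3.12 ± 0.24) and Serping1, the inhibitor of both proteases (-2.31 ± 0.11), were lower along with C1s1. Masp1, a protease of the lectin pathway, was higher (1.32 ± 0.16). Cd55, the other, lost its call without animal 1 and without animal 3, and without some single arrays. For immediate early genes, which cells switch on within minutes of a stimulus, limma called 18 of 27 lower and 0 higher (0 higher at an unadjusted p under 0.05), with a median of -0.56. Fosl1, a Fos-related factor (-1.86 ± 0.13), Socs3, a brake on cytokine signals (-1.36 ± 0.11), and the nuclear receptor gene Nr4a1 (-1.16 ± 0.10) were among them. The cyclic AMP response element TGACGTCA stood before the start of 1 of 15 of these genes (6.7%, Btg2) and of 1.8% of all genes.

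With the brightest probe set no call was made for Col1a1 and Col3a1, the main fibrillar collagens. Col1a1 was at 13.13, 13.12 and 13.13 in papillary arrays, against 13.11, 13.15 and 13.15 in Dlk1+ Sca1+ arrays (difference -0.01 ± 0.06, adjusted p = 0.947), near the upper end of the table's values. Col3a1 differed by -0.06 ± 0.06 (adjusted p = 0.599). The call of Col3a1 depended on the probe set: 1 of its 2 was called higher, and the gene was called with the mean of both (0.18, adjusted p = 0.041) and with the most variable one (0.41, adjusted p = 0.00245). Of 29 collagen genes outside type IV 8 were called higher (27.6% against 14.1% of all genes) and 7 lower (24.1% against 13.9%). Col7a1, the anchoring fibril collagen under the epidermis, was at 11.34, 11.16 and 11.12 in papillary arrays, against 7.87, 7.98 and 8.26 in Dlk1+ Sca1+ arrays (difference 3.17 ± 0.14). Col27a1 (1.47 ± 0.16) and Col25a1 (1.29 ± 0.12) were higher. Col5a3 was at 6.97, 7.24 and 7.17 in papillary arrays, against 10.92, 11.03 and 10.92 in Dlk1+ Sca1+ arrays (difference -3.83 ± 0.10). Col15a1, of basement membrane zones around vessels and muscle (-1.90 ± 0.14), and Col14a1, which binds to fibrils (-1.58 ± 0.10), were lower.

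Basement membrane genes moved in both directions. Of 24 measured, 5 were called higher (20.8% against 14.1% of all genes) and 8 lower (33.3% against 13.9%). Col4a5 and Col4a6 were higher, as given above, and Col4a1 (-1.20 ± 0.06) and Col4a2 (-1.88 ± 0.09), the chains found in nearly all basement membranes, were lower. Fras1, which anchors the epidermis in the embryo, was higher (3.18 ± 0.31), and its partner Frem1 was lower (-1.54 ± 0.13). Lamc3, a laminin chain, was higher (2.17 ± 0.13), while Nid1, which links laminin to collagen IV, was lower (-1.63 ± 0.08).

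Of 17 elastic fibre genes 12 were called lower (70.6% against 13.9% of all genes) and 1 higher, with a median of -0.65. Mfap5, a microfibril protein, was at 6.86, 7.35 and 7.75 in papillary arrays, against 10.96, 10.99 and 10.93 in Dlk1+ Sca1+ arrays (difference -3.64 ± 0.17). Eln, elastin itself, was at 11.70, 11.75 and 11.52 in papillary arrays, against 12.69, 12.77 and 12.67 in Dlk1+ Sca1+ arrays (difference -1.05 ± 0.10), with tight groups. Efemp1, a fibulin (-2.21 ± 0.16), and Lox, which cross-links elastin and collagen (-1.0 ± 0.09), were lower, and Fbn2, the fetal fibrillin, was higher (0.59 ± 0.12, not called without animal 2). Of 35 proteoglycan and matricellular genes 19 were called lower (54.3%) and 4 higher (11.4%, under the 14.1% of all genes). Prelp, Has1, a hyaluronan synthase (-2.64 ± 0.12), and Thbs3, a thrombospondin (-2.60 ± 0.09), led those that were lower. Sdc2, a syndecan (0.80 ± 0.09), and Lum, lumican (0.69 ± 0.07), were higher.

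Of 35 matrix proteases and their inhibitors 17 were called lower and 8 higher, and the 8 became 4 to 5 without animal 1, 2 or 3 and 5 without the Dlk1+ Sca1+ array of animal 2. After Plat came Adamts18 (-3.79 ± 0.19) and Adam23, an ADAM protein without protease activity (-3.60 ± 0.18). Timp1, an inhibitor of metalloproteases, was lower (-2.17 ± 0.11), while the inhibitor Reck (0.93 ± 0.24) was higher, although not without animal 1.

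Surface molecules for adhesion and guidance split between the populations. Of 43 adhesion genes 10 were called higher (23.3% against 14.1% of all genes) and 12 lower (27.9% against 13.9%). Itga4, an integrin chain that binds Vcam1 and fibronectin (2.68 ± 0.12), Itga8, a receptor of nephronectin (1.47 ± 0.16), and Cdh6 (2.21 ± 0.14) were higher. Itgb3, a chain of the vitronectin receptor (-1.61 ± 0.09), Alcam (-1.38 ± 0.33, not called without animal 3) and Pcdh19 (-2.38 ± 0.23) were lower. Of 50 axon guidance genes 16 were called higher (32.0%) and 10 lower (20.0%). Robo1 (2.07 ± 0.13) and Robo2 (2.22 ± 0.15), receptors of Slit proteins, were higher. The ephrin genes Efna5 (2.45 ± 0.10) and Efnb2 (2.33 ± 0.17) were higher. Epha3, a receptor of the ephrin-A class, was at 7.0, 6.72 and 6.83 in papillary arrays, against 10.76, 10.52 and 10.46 in Dlk1+ Sca1+ arrays (difference -3.73 ± 0.11), and its relative Epha4 was lower too (-1.89 ± 0.23). These ephrins were high and these Eph receptors low in papillary cells, without overlap.

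Of 34 Hox genes limma called 13 higher and 0 lower (0 lower at an unadjusted p under 0.05), with a median of 0.27. Hoxc4 was at 8.62, 8.58 and 8.94 in papillary arrays, against 7.30, 7.45 and 7.68 in Dlk1+ Sca1+ arrays (difference 1.24 ± 0.13), and Hoxb2 (1.20 ± 0.10), Hoxb5 (1.20 ± 0.12), Hoxa9 (1.04 ± 0.09) and Hoxd9 (0.89 ± 0.10) show that members of all 4 clusters were among those higher. Of 65 other mesenchymal factor genes 16 were called higher (24.6% against 14.1% of all genes) and 14 lower (21.5% against 13.9%). Osr2 (1.82 ± 0.13), Twist1 (1.46 ± 0.08) and Sox4 (1.26 ± 0.11) were higher. Hic1, a repressor that marks quiescent mesenchymal progenitors, was at 4.91, 5.15 and 4.88 in papillary arrays, against 8.20, 8.23 and 8.10 in Dlk1+ Sca1+ arrays (difference -3.20 ± 0.10), and Meox1 (-2.16 ± 0.13) and Sox9 (-1.73 ± 0.31) were lower. Of 21 genes of the dermal papilla and condensate, the mesenchyme of hair follicles, 11 were called higher and 7 lower. Many of them are also in the papillary and Wnt lists. Ndnf, a secreted protein, was higher (2.39 ± 0.23). Sox2 and Corin, which define the dermal papilla, had differences of -0.11 ± 0.07 and 0.08 ± 0.13 (adjusted p = 0.322 and 0.767), with levels between 3.59 and 4.2 on all 6 arrays.

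Of 40 enzymes that handle foreign compounds and oxidants 21 were called lower and 4 higher. Ahr, the aryl hydrocarbon receptor, was at 11.29, 11.13 and 11.11 in papillary arrays, against 7.81, 7.93 and 7.92 in Dlk1+ Sca1+ arrays (difference 3.29 ± 0.16). Ahrr, its repressor and target, was at 9.09, 8.88 and 8.89 in papillary arrays, against 6.08, 5.97 and 6.4 in Dlk1+ Sca1+ arrays (difference 2.80 ± 0.13). Cyp1b1, another target of this receptor, was nevertheless 35.2-fold lower in papillary cells. Mgst1, a glutathione transferase (-4.18 ± 0.12), Sod3, the extracellular superoxide dismutase (-3.69 ± 0.15), and Gpx3, the secreted glutathione peroxidase (-3.30 ± 0.44), were lower. Gpx3 was at 6.55, 6.30 and 6.81 in papillary arrays, against 11.01, 9.32 and 9.22 in Dlk1+ Sca1+ arrays, so its arrays spread widely without overlap.

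Of 26 genes of the angiotensin, natriuretic peptide and prostaglandin systems 17 were called lower and 1 higher, Npr2, whose call was lost without animal 2 and without animal 3. Besides Agtr2 and Ptgs2, Agt, the precursor of angiotensin (-2.34 ± 0.15), Agtr1a, the type 1 receptor (-1.93 ± 0.13), and Slco2a1, a prostaglandin transporter (-2.22 ± 0.14), were lower. The retinoic acid list was split, with 5 of 19 called higher (26.3% against 14.1% of all genes) and 6 lower (31.6% against 13.9%). Crabp1, which binds retinoic acid in the cytoplasm (2.76 ± 0.23), and Cyp26b1, which degrades it (1.65 ± 0.11), were higher. Aldh1a1 (-2.66 ± 0.18) and Aldh1a2 (-0.95 ± 0.23, not called without animal 1), which make retinoic acid, were lower along with Rbp4.

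Of 41 ion channel genes 8 were called higher (19.5% against 14.1% of all genes) and 6 lower (14.6% against 13.9%), or 3 lower without animal 2, so both shares lay near those of all genes. Among them were the gap junction gene Gja1, which was higher (1.58 ± 0.13), and the potassium channel gene Kcnj8, which was lower (-3.23 ± 0.16). Kcnj8 is also a pericyte marker, and Rgs5 and Myh11, which define mural cells, were not called. Of 33 glycolysis and hypoxia genes 7 were called higher (21.2%), or 4 without animal 3, and 13 lower (39.4%). Egln3, an oxygen sensor that hypoxia induces, was higher (2.89 ± 0.11), but Hk2, a hexokinase (-1.53 ± 0.10), and Vegfa (-1.24 ± 0.09), which hypoxia also induces, were lower. Of 16 genes of the fascia and adventitia, where another Sca1+ fibroblast lies, 9 were called lower (56.2%) and 3 higher (18.8%). Procr, the protein C receptor (-2.69 ± 0.20), and Ly6c1, a surface protein of the family of Sca1 (-1.81 ± 0.12), were lower. The list was not one-sided: 6 members were called at least 2-fold lower and 2 at least 2-fold higher. Its differences ran from -4.68 to 4.16. Housekeeping lists stood near or under the background: 1 of 70 ribosomal protein genes was called higher and 1 lower, 9 and 6 of 73 mitochondrial ribosomal protein genes, and 13 and 3 of 79 respiratory chain genes. Without animal 2 the higher counts of the last 2 lists were 1 and 4. Their lower counts were 2 to 5 and 1 to 4 when an animal or an array was left out. Mrpl19 was the member called with a large difference (-3.24 ± 0.15), but another of its 4 probe sets was called higher.

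**Figure D4:**
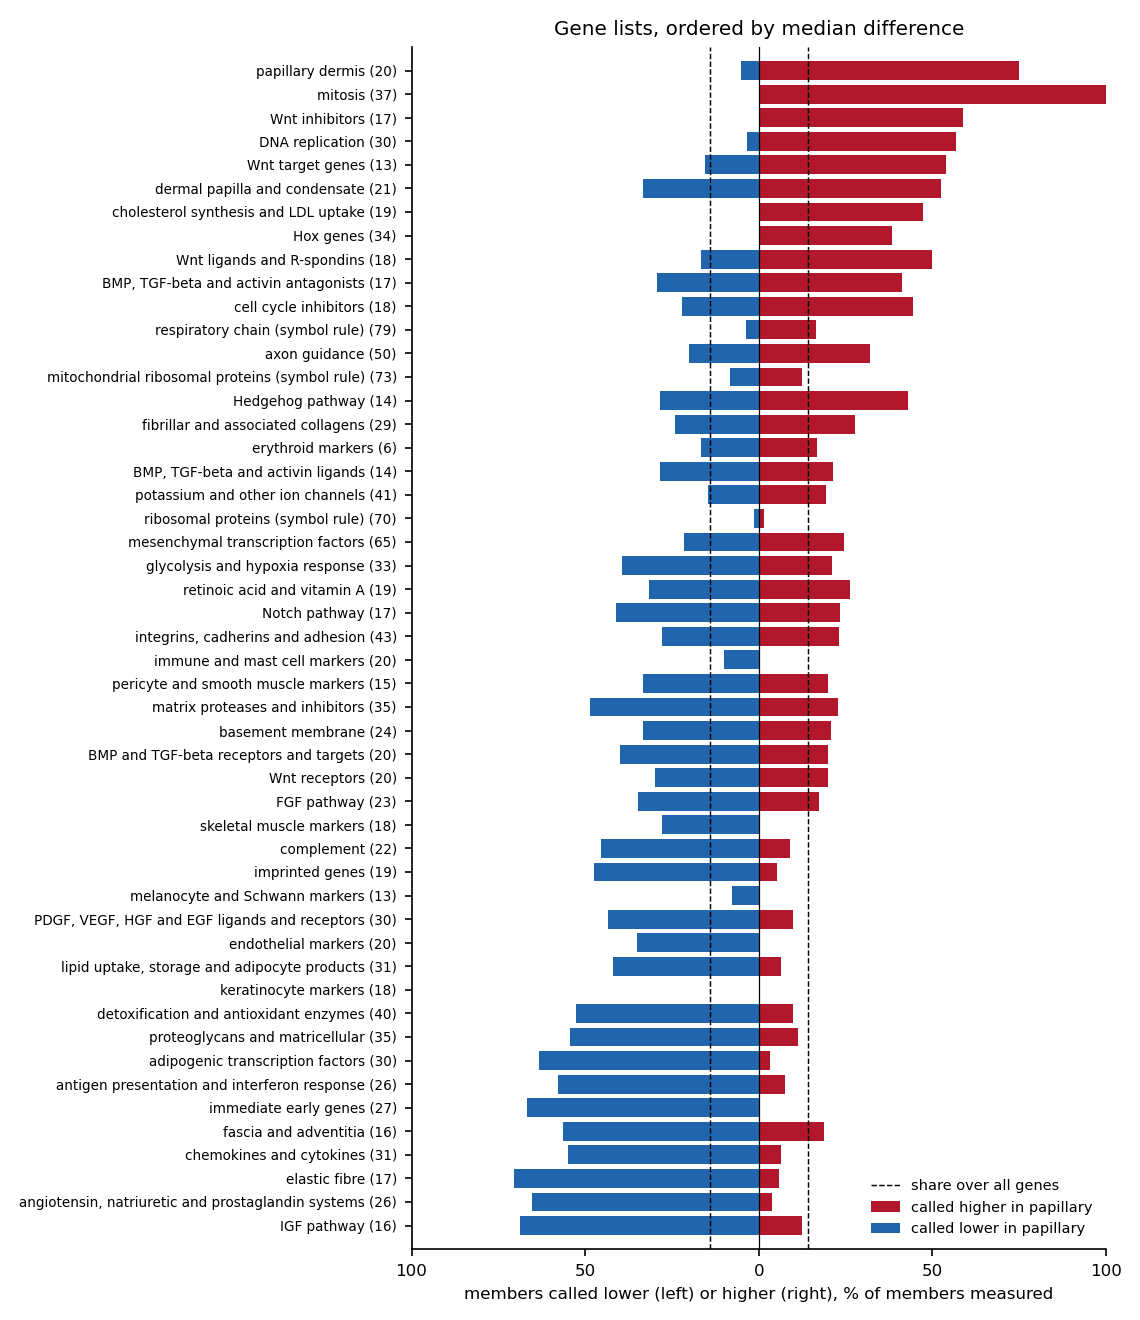
Share of the measured members of each gene list called higher (red, right) or lower (blue, left) in papillary cells, in % of members, with the number measured in brackets and lists ordered by median difference. Dashed lines mark the shares over all genes, 14.1% higher and 13.9% lower. Mitosis reaches 100% on the right, and the IGF list is at the bottom with 11 of 16 genes lower.

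The Dlk1+ Sca1+ cells were also set against the other populations, to see which of these genes separate papillary cells from them and which mark them among all 4. Against Dlk1+ Sca1+ cells limma called 1441 genes in reticular cells (8.43%) and 1258 in Dlk1- Sca1+ cells (7.36%), while papillary cells had 4787 (28.0%). These comparisons share the Dlk1+ Sca1+ arrays. Of the 40 genes with an excess of at least 8-fold in papillary over Dlk1+ Sca1+ cells, 20 were also called higher in reticular cells and 11 in Dlk1- Sca1+ cells. Of the 81 with a deficit of that size, 44 were also called lower in reticular cells and 43 in Dlk1- Sca1+ cells.

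In 79 genes (0.462%) Dlk1+ Sca1+ cells were called lowest against each of the other populations. Rarres1, a membrane protein that retinoic acid induces, was higher by 2.88 ± 0.16 in papillary, 3.26 ± 0.16 in reticular and 1.91 ± 0.16 in Dlk1- Sca1+ cells than in Dlk1+ Sca1+ cells. Trps1 was higher by 4.28 ± 0.16 in papillary, 2.77 ± 0.16 in reticular and 1.5 ± 0.16 in Dlk1- Sca1+ cells, so it followed an order with Dlk1+ Sca1+ cells at the bottom. Wif1 was higher by 2.55 ± 0.16 in papillary, 1.42 ± 0.16 in reticular and 1.78 ± 0.16 in Dlk1- Sca1+ cells. The count was 24 to 39 without animal 1, 2 or 3 and 124 with the animal as a block.

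In 99 genes (0.579%) Dlk1+ Sca1+ cells were called highest. Ifi203 differed from them by -2.82 ± 0.12 in papillary, -1.80 ± 0.12 in reticular and -1.84 ± 0.12 in Dlk1- Sca1+ cells. Akr1c14, an enzyme of steroid metabolism, differed by -3.25 ± 0.15 in papillary, -2.33 ± 0.15 in reticular and -1.60 ± 0.15 in Dlk1- Sca1+ cells. Fgf23, a hormone of phosphate balance best known from bone, was at 3.92, 3.96 and 4.02 in papillary arrays, against 5.42, 5.82 and 5.68 in Dlk1+ Sca1+ arrays, and differed from Dlk1+ Sca1+ cells by -1.23 ± 0.15 in reticular and -1.30 ± 0.15 in Dlk1- Sca1+ cells. This count was 26 to 52 without animal 1, 2 or 3, 60 and 61 without the Dlk1+ Sca1+ arrays of animals 3 and 1, and 169 with the animal as a block.

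The genes at the head of the comparison with papillary cells fell into different patterns over the other populations. Agtr2 was at a mean of 4.78 in papillary, 11.20 in reticular and 9.98 in Dlk1- Sca1+ cells, and its reticular minus Dlk1+ Sca1+ difference was -0.26 ± 0.11 (adjusted p = 0.219). Fabp4 differed by -2.20 ± 0.29 in reticular cells, and in Dlk1- Sca1+ cells its difference from Dlk1+ Sca1+ cells was 0.19 ± 0.29 (adjusted p = 0.856). Lgr5 differed by -0.88 ± 0.14 in reticular and by -0.94 ± 0.14 in Dlk1- Sca1+ cells. Col26a1 was higher by 3.59 ± 0.15 in reticular and by 0.95 ± 0.15 in Dlk1- Sca1+ cells. Cdk1 was higher by 0.44 ± 0.11 in reticular cells (adjusted p = 0.0289), and for Ccna2 neither neighbour was called against Dlk1+ Sca1+ cells.

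**Figure D5:**
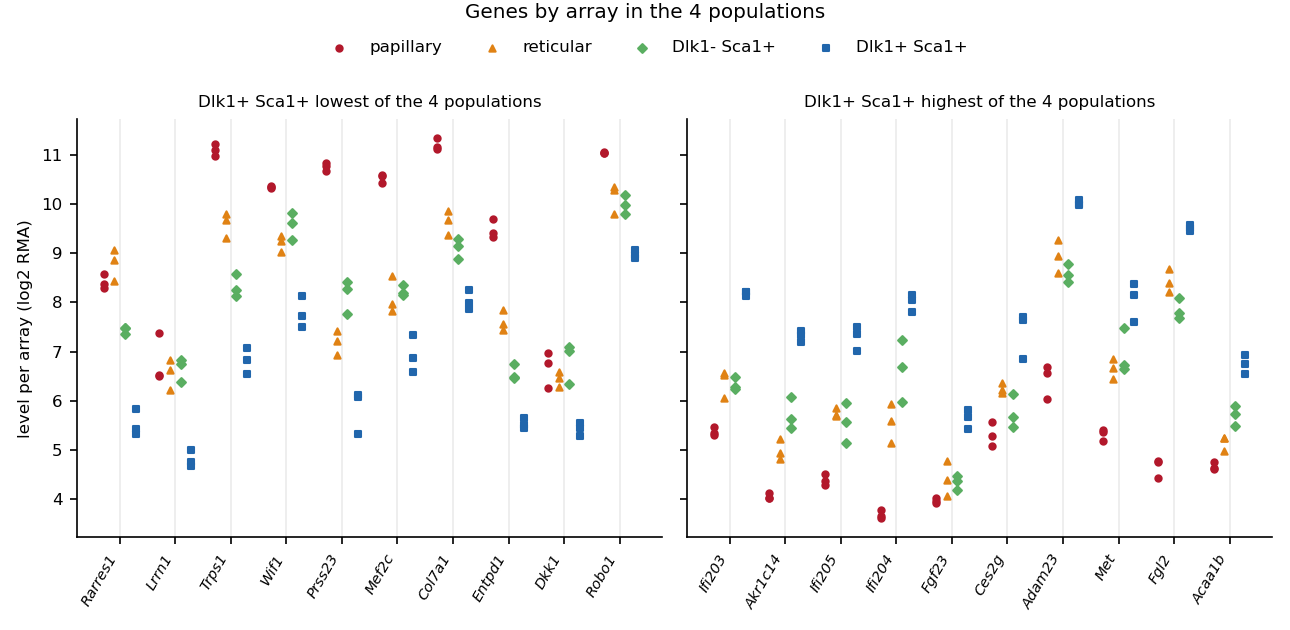
Level of each array (vertical axis, log2) in papillary, reticular, Dlk1- Sca1+ and Dlk1+ Sca1+ cells, 3 arrays each, for the 10 genes with Dlk1+ Sca1+ cells called lowest (left) and the 10 with them called highest (right) by the widest margin. In both panels papillary cells lie farthest from Dlk1+ Sca1+ cells in most genes, and Rarres1 is highest in reticular cells.

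A few genes differed between the groups by an amount that changed from animal to animal. Hbb-b2, a haemoglobin chain, was at 6.2, 5.77 and 5.88 in papillary arrays, against 10.16, 6.33 and 9.88 in Dlk1+ Sca1+ arrays (difference -2.84 ± 1.07, adjusted p = 0.067). Its level was high on the Dlk1+ Sca1+ arrays of animals 1 and 3, and without the Dlk1+ Sca1+ array of animal 2 it was called (adjusted p = 0.00649). Krt5, a keratin of basal epidermis, was at 10.92, 8.28 and 8.18 in papillary arrays, against 10.68, 10.94 and 9.59 in Dlk1+ Sca1+ arrays (difference -1.28 ± 0.82, adjusted p = 0.318, and 0.0493 once the animal was a block), with the papillary array of animal 1 as high as the other group. Without animal 1 Krt5 was called lower (adjusted p = 0.00399). Sprr1a, of the cornified epidermis, was at 6.35, 8.32 and 6.48 in papillary arrays, against 6.88, 10.94 and 7.14 in Dlk1+ Sca1+ arrays, highest on both arrays of animal 2. In 57 genes probe sets were called in opposite directions, such as Mrpl19 and Timeless, so that the difference printed holds for the brightest probe set.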

How the data were processed

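The deposited table holds log2 expression values for 12 Affymetrix arrays. The authors made them with RMA (affy), per the submitters' processing notes, whereas its version and the genome build are not given in the sources used here. The method corrects background, sets arrays to one distribution by quantiles and summarises probe sets, and it compresses differences of dim probe sets. The deposited log2 values ran from 3.30 to 13.27, with array medians of 6.21 to 6.34, and were not normalized again. cDNA of 4500 cells went through 21 cycles of amplification before 8 µg was labelled, per the labels' protocols, and such amplification can distort ratios between transcripts. For arrays, their number (3 per population) limits the precision.

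Of 45141 probe sets 104 controls were left out. A platform annotation gave 28898 probe sets 1 gene symbol, 551 several and 15588 none, and the last groups were not used. Of those with 1 symbol, 28689 matched a RefSeq gene, and 0 symbols changed. The brightest probe set over the 12 arrays stood for each of 17097 genes, with no filter on dim genes. A linear model with a term per population was fitted to the 12 arrays (limma 3.58.1 under R 4.3.3), with 8 residual and 4.475 prior degrees of freedom. P-values were two-sided and adjusted by Benjamini-Hochberg over all genes within each contrast, and the computation was tested on simulated data.

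The labels give each array a biological replicate (NB1 to NB3, described as littermates). Arrays of one number were taken as the same animal and so as paired, which the labels do not state. Deviations from population means correlated within an animal at a mean r of 0.266 over genes (0.086 to 0.432, 17 of 18 pairs over 0.1). The fit with the animal as a block is an alternative, as are other normalizations, probe set choices, moderation, thresholds and leaving out each animal or array.

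The populations, the 51 gene lists and the rule for named genes were chosen with earlier results of these data known, so lists are described by counts and medians and not tested as sets. Some genes are in several lists. Named were the sorting genes, the 25 genes per direction with the largest difference and no overlap, up to 5 called members per list and direction, members whose lack of a call is described, genes that vary most between animals, the 10 per direction with Dlk1+ Sca1+ cells at an extreme of the 4 populations, and genes with opposed probe sets. Genes outside this rule, such as Pparg, Cebpa, Mki67, Cdk1, Lox and Cdkn1b, were chosen after their values were seen. Promoters are RefSeq sequence of GRCm38.p6, and motifs were searched on both strands in the 250 bases before each start. The motifs shown were chosen from a wider set after their matches were seen.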

Additional observations from a re-analysis of the deposited data

How the results depend on the processing

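The 4787 calls were recomputed under 20 alternatives. With a log2 difference of at least 1 required as well, 1123 genes were called, 522 higher and 601 lower. Leaving out an animal or an array gave 3442 to 4327 calls, with the fewest without animal 3. With the animal as a block 5774 genes were called, 4780 of them among the 4787, 2939 higher and 2835 lower. The block changed the call of Pdgfra, Kit, Krt5, Hba-a1 and Hmgcs1, as given above, and changed no other call among the genes named. Repeated quantile normalization gave 5009 calls and centring on medians 4828, and no scaling moved the median of all genes by more than 0.03. Of 377 called genes that were named by the rule or in the text, 254 kept direction and call in every alternative and 0 reversed. Directions reversed in genes without a call: Ptprc had -0.01 without animal 2 and without its Dlk1+ Sca1+ array, Sprr1a 0.04 without the Dlk1+ Sca1+ array of animal 2 (-1.99 to 0.04 over arrays and animals left out), Col1a1 0.00 without animal 2 (-0.02 to 0.00), Corin -0.11 without animal 1 and -0.08 without its Dlk1+ Sca1+ array (-0.11 to 0.22), and Col3a1, not called in the fit reported, was called higher at 0.18 with the mean of its probe sets and at 0.41 with the most variable one. The calls lost without an animal had fewer arrays behind them. Signal near the low end of the scale, where many of these genes lie in one population, can limit the fold differences. How far it did so here was not tested.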

Other observations

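Contractile genes did not move as a group. Of 15 pericyte and smooth muscle markers, Myl9, a myosin light chain (0.79 ± 0.13), Myocd, a co-activator of smooth muscle genes (0.76 ± 0.19), and Des, desmin (0.52 ± 0.12), were higher in papillary cells. Acta2, the smooth muscle actin, was at 7.27, 7.49 and 7.54 in papillary arrays, against 8.67, 9.06 and 8.75 in Dlk1+ Sca1+ arrays (difference -1.39 ± 0.18), and Notch3 (-0.85 ± 0.12) and Pdgfrb (-0.64 ± 0.10), receptors of mural cells, were lower. Rgs5 was at 5.79, 6.09 and 5.85 in papillary arrays, against 6.14, 8.98 and 6.10 in Dlk1+ Sca1+ arrays and Myh11 at 5.89, 5.85 and 5.83 in papillary arrays, against 6.09, 8.37 and 6.13 in Dlk1+ Sca1+ arrays. Both were highest on the Dlk1+ Sca1+ array of animal 2 and were not called. Acta2 was lower on each papillary array than on any Dlk1+ Sca1+ array.

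The globin genes disagreed: the other alpha chain on the array, Hba-a2, differed by 0.39 ± 0.06, against -2.23 ± 0.77 for Hba-a1, although these are near-identical copies whose probes can share transcripts. Slc39a8, a zinc and manganese transporter, was among the genes whose difference varied most between animals, at 5.98, 9.58 and 6.35 in papillary arrays, against 8.62, 9.80 and 8.58 in Dlk1+ Sca1+ arrays (difference -1.70 ± 0.83).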
